A study of Homo sapiens with 45 samples.

Results

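The inositol polyphosphate 5-phosphatases are enzymes that remove the phosphate at the 5 position from soluble inositol phosphates or from phosphoinositide lipids. The 10 genes described here are INPP5A, INPP5B, INPP5D, INPP5E, INPP5F, INPP5J, INPP5K, INPPL1, OCRL and SYNJ1, taken by symbol from the 28278 names of a gene count table. INPP5A was chosen by its lower RNA level after HNRNPK siRNA in these libraries, so its values in that comparison are a description and carry no test. The other 9 were included by family. Of the 10, 9 passed the filter on low counts and were among the 13933 genes tested. INPP5D had no count in those libraries.

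When a receptor activates phospholipase C, the membrane lipid phosphatidylinositol bisphosphate (PIP2) is cleaved and inositol trisphosphate (InsP3) is released into the cytosol, where it opens calcium channels of the endoplasmic reticulum. INPP5A acts on InsP3 itself and on inositol tetrakisphosphate, and so ends the calcium signal. Most other members act on lipids: PIP2, or the product of phosphoinositide 3-kinase, phosphatidylinositol trisphosphate (PIP3). In epithelial cells these lipids mark the plasma membrane, endosomes and the primary cilium, and PIP3 recruits the kinase AKT.

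HCT116 is an established human colon cancer line. All cells were transfected with siRNA at 25 nM for 72 hours, either against HNRNPK, an RNA-binding protein that prefers C-rich sequence, or nontargeting. The RNA groups were 4 libraries of the nontargeting siRNA siNTC5, 4 of siHNRNPK, and 2 nontargeting libraries named Scramble. Replicates 1 and 2 of siNTC5 and siHNRNPK were made with a TruSeq stranded mRNA kit and replicates 3 and 4 with an Illumina Ligation kit. The Scramble libraries were TruSeq libraries from RNA purified with a Qiagen kit, whereas the other RNA came from a Maxwell kit, and they have count tables of their own. Chromatin immunoprecipitation (ChIP) in the same line gave 7 lists of domains: lamin B1, H3K9me3 and H3K27me3 each in siControl and siHNRNPK cells, and H3K9me2 in siControl cells. The series holds 3 ChIP libraries per siRNA for lamin B1 and H3K9me3, 3 for H3K9me2 and 2 per siRNA for H3K27me3. It also holds 8 input libraries per siRNA. Only a single list was given for each antibody and siRNA, so no list has a replicate.

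Total counts ranged from 12107280 to 23633851 in the 8 siNTC5 and siHNRNPK libraries and were 59209169 and 55007171 in Scramble. HNRNPK averaged 884.4 ± 77.95 CPM (counts scaled by TMM library size; SD, n = 4) in siNTC5 and 198.5 ± 45.34 (SD, n = 4) in siHNRNPK, which is 22.45% of control. The exact two-sided permutation p was 0.0286, the smallest that 4 against 4 libraries can give. Of 10 epithelial and colon markers 6 reached 1 CPM in siNTC5, while VIL1, CDX1, LGR5 and CEACAM5 were near 0. Summed epithelial markers were 2698 to 3130 CPM in siNTC5, 4407 to 5403 in siHNRNPK and 4160 to 4265 in Scramble. The sum combines opposite differences: mean KRT8 was 1161, 2302 and 1386 CPM in siNTC5, siHNRNPK and Scramble, KRT18 was 652.5, 1723 and 798.3 CPM, and KRT19 was 807.9, 331.5 and 1529 CPM. Of 7 neuronal markers 6 reached 1 CPM in siNTC5, led by TUBB3 (143.6 CPM in siNTC5, 49.82 in siHNRNPK) and SYT1 (106.4 and 131.3 CPM), and their sum was 230.4 to 321.3 CPM in siNTC5, 186.3 to 250.3 in siHNRNPK and 402.1 to 415.2 in Scramble. Of 9 fibroblast and endothelial markers only COL1A1 reached 1 CPM in siNTC5, at 60.33, and it was at 97.22 CPM in siHNRNPK; LUM was at 0. The part of these markers in the results was not tested.

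INPP5A was present at moderate level in every control library and at low level in every knockdown library. The siNTC5 libraries held 19.27, 16.5, 15.46 and 15.93 CPM (replicates 1 to 4, from 325, 395, 232 and 291 counts). The siHNRNPK libraries held 3.098, 1.337, 2.107 and 1.483 CPM (from 47, 18, 25 and 18 counts). The lowest control library was therefore well above the highest knockdown library, and the groups did not overlap. Mean INPP5A was 16.79 ± 1.709 CPM in siNTC5 and 2.006 ± 0.8008 CPM in siHNRNPK (SD, n = 4 each). The knockdown level was 11.95% of control over all libraries, 12.4% within the TruSeq libraries and 11.44% within the Ligation libraries. The log2 fold change of siHNRNPK over siNTC5, called the log2 change from here on, was −3.04 ± 0.17 (SE), the 14th lowest of the 13933 genes tested. In bulk RNA, fewer cells holding a transcript and less transcript per cell cannot be told apart.

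The low knockdown counts limit precision within that group: replicates 1 and 2, both TruSeq libraries, stood at 3.098 and 1.337 CPM. The difference between the kits in the knockdown effect on INPP5A was −0.15 ± 0.39 (SE) on the log2 scale, given as a description. With siHNRNPK replicate 1 or 2 left out it moved to 0.601 or −0.608, from a single TruSeq knockdown library. Of all tested genes 0.129% passed edgeR's quasi-likelihood test of the interaction of kit and knockdown, and none of the 8 other tested members did. The unadjusted p of this test was lowest for INPP5E and INPP5B (0.0208 and 0.0425), with adjusted p of 0.329 and 0.403. The share of all genes under an unadjusted p of 0.05 is not given, so no excess is read from these values.

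The Scramble libraries gave a second set of control values for INPP5A. Scaled together over 10 libraries, INPP5A was 18.3 and 17.67 CPM in Scramble, 15.54 to 19.21 CPM in siNTC5 and 1.338 to 3.092 CPM in siHNRNPK. In order of mean level, Scramble stood at 17.98, siNTC5 at 16.82 and siHNRNPK at 2.00 CPM. The control sets overlapped, and both stood apart from the knockdown libraries. INPP5A was chosen by its low values in those same siHNRNPK libraries, so the gap from Scramble is also only a description. The fitted log2 difference of Scramble minus siNTC5, with a kit term, was −0.03 ± 0.10 (SE). Scramble differs from siNTC5 also in purification and count table, and these cannot be told apart from the siRNA.

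**Figure D1:**
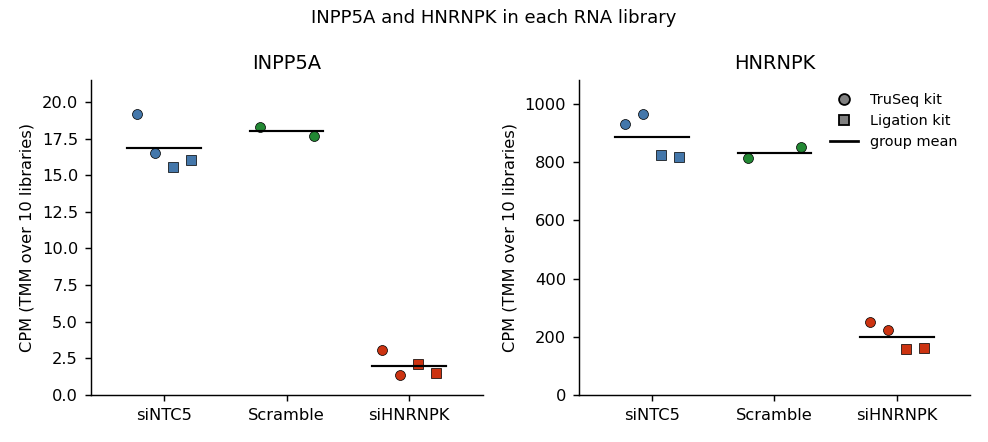
INPP5A (left) and HNRNPK (right) in CPM, scaled over all 10 RNA libraries; each point is a library, circles are TruSeq and squares Ligation libraries, and lines are group means. INPP5A lies between 15.54 and 19.21 CPM in all 6 control libraries and between 1.338 and 3.092 CPM in the 4 siHNRNPK libraries.

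Among the 8 other tested members, 3 rose and 3 fell after HNRNPK siRNA, and 2 did not pass. INPP5J, SYNJ1 and INPP5K were higher, and OCRL, INPP5F and INPPL1 were lower, all by less than 1 on the log2 scale. The 6 of 8 called make 75%, beside 71.5% of all 13933 genes tested (edgeR quasi-likelihood test, Benjamini-Hochberg adjusted p under 0.05). Over all tested genes 36.1% were called lower and 35.5% higher. The median log2 change of the 8 was −0.04, and that of all tested genes was −0.00423, with a median absolute value of 0.408. Groups of 4 libraries did not overlap for 4 of the 8 (INPP5J, SYNJ1, OCRL and INPP5F), as for 56.5% of all tested genes. The call share of the family was thus near the background of the table.

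OCRL and INPP5B are close paralogs, and both hydrolyse PIP2 on endosomes and the Golgi. OCRL, mutated in Lowe syndrome, held 71.74, 76.17, 74.21 and 75.7 CPM in siNTC5 replicates 1 to 4. In siHNRNPK it held 66.84, 61.42, 62.46 and 63.7 CPM. Every knockdown library was below every control library, and the log2 change was −0.23 ± 0.05 (SE, adjusted p = 0.000708). INPP5B held 31.01, 32.2, 34.78 and 36.67 CPM in siNTC5. It held 30.91, 33.05, 30.26 and 29.42 CPM in siHNRNPK. The INPP5B groups overlapped, with a log2 change of −0.12 ± 0.07 (SE, adjusted p = 0.149). Within kits, with 2 libraries per group, the value was 0.02 in TruSeq libraries and −0.27 in Ligation libraries. INPP5B passed in the latter (adjusted p = 0.00553), but the share of all genes called within a kit is not given. Its interaction of kit and knockdown did not pass (adjusted p = 0.403).

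INPPL1 (SHIP2) and INPP5D (SHIP1) remove the 5-phosphate of PIP3 and carry an SH2 domain. INPPL1 is widely expressed, and INPP5D is known for its role in blood cells. INPPL1 held 150.8, 144.6, 180.5 and 184.3 CPM in siNTC5 and 134.7, 134.6, 141.4 and 155.6 CPM in siHNRNPK. The Ligation libraries were higher than the TruSeq libraries in both groups, and the groups overlapped. Its log2 change was −0.21 ± 0.05 (SE, adjusted p = 0.000552). Within kits, with 2 libraries per group, it was −0.13 in TruSeq libraries, where it did not pass (adjusted p = 0.0862), and −0.31 in Ligation libraries.

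INPP5D was listed at 0 counts in all 8 siNTC5 and siHNRNPK libraries. A count of 0 allows up to 3 counts, or 0.127 to 0.248 CPM, by counting error only. In the separate Scramble tables INPP5D held 223 and 196 counts, 4.465 and 4.249 CPM. At the Scramble share, 86.61 counts would fall in siNTC5 replicate 2, the deepest library of the 8. The zero is not specific to INPP5D: 184 of the 25527 names shared by the tables were at 0 in all 8 libraries with at least 100 counts in both Scramble libraries. For 2 names the reverse held. The sets of names differ, with 28278 in the count table of the 8 libraries and 27135 in each Scramble table. The annotation is not given, and its part in the zeros was not tested. No fold is given for INPP5D, because the libraries at 0 and those with counts come from separate tables, so table and siRNA set cannot be told apart. Of 8 blood markers CD3E was at 0 and PTPRC averaged 0.0296 CPM in siNTC5 and 0.0582 CPM in siHNRNPK. ITGAM alone reached 1 CPM in siNTC5, at 1.375, and was at 7.146 CPM in siHNRNPK and 0.3636 CPM in Scramble.

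SYNJ1, synaptojanin 1, has a 5-phosphatase domain and a SAC phosphatase domain and helps strip clathrin coats from vesicles. It held 17.96, 20.88, 17.32 and 17.51 CPM in siNTC5. It held 27.95, 25.77, 25.54 and 27.77 CPM in siHNRNPK. All 4 knockdown libraries were above all controls, with a mean of 18.42 ± 1.662 against 26.76 ± 1.277 CPM (SD, n = 4 each). The log2 change was 0.53 ± 0.08 (SE, adjusted p = 8.83e-06). The SYNJ1 span overlaps the noncoding gene PAXBP1-AS1, which held 51 to 141 counts a library, and the strand counted is not given in the sources used here. The paralog SYNJ2, not a member of the 10, went the other way, from 50.48 ± 0.67 to 44.39 ± 4.22 CPM (SD, n = 4 each). Its log2 change was −0.18 ± 0.07 (SE, adjusted p = 0.0192), with overlapping groups.

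INPP5J and INPP5K share a C-terminal domain that targets them to membranes, INPP5J to the plasma membrane and INPP5K to the endoplasmic reticulum and ruffles. INPP5J held 12.81, 13.28, 17.32 and 18.06 CPM in siNTC5. It held 20.5, 20.05, 26.89 and 26.95 CPM in siHNRNPK. The Ligation libraries stood above the TruSeq libraries in each group, and the groups still did not overlap. With 15.37 ± 2.708 against 23.6 ± 3.839 CPM (SD, n = 4 each), INPP5J had the largest rise of the family, a log2 change of 0.62 ± 0.08 (SE, adjusted p = 7.27e-07). It was 0.64 within TruSeq and 0.59 within Ligation libraries.

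INPP5K held 28.52, 28.36, 29.45 and 28.73 CPM in siNTC5 and 34.14, 35.8, 31.86 and 29.09 CPM in siHNRNPK. The TruSeq knockdown libraries were the highest, and siHNRNPK replicate 4 lay within the controls. The log2 change was 0.19 ± 0.07 (SE, adjusted p = 0.0257), from 0.31 in TruSeq to 0.06 in Ligation libraries. This call was lost under 10 of 19 alternatives. They include leaving out siNTC5 replicate 1 or 2 (log2 change 0.166 or 0.158) or siHNRNPK replicate 1, 2 or 3 (0.17, 0.143 or 0.178).

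INPP5E resides in the primary cilium and is mutated in Joubert syndrome. It held 36.23, 32.95, 40.24 and 37.05 CPM in siNTC5 and 29.13, 34.31, 45.18 and 44.66 CPM in siHNRNPK. The TruSeq knockdown libraries lay low and the Ligation ones high, and the groups overlapped. The log2 change was 0.05 ± 0.08 (SE, adjusted p = 0.596). Within kits, with 2 libraries per group, it was −0.12 in TruSeq and 0.21 in Ligation libraries. INPP5E passed in the latter (adjusted p = 0.018), where the share of all genes called is not given. The interaction of kit and knockdown was 0.34 ± 0.13 (SE, adjusted p = 0.329), the largest of the family in size.

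INPP5F (SAC2) carries the family's symbol, although its SAC domain acts on the 4-phosphate of phosphatidylinositol 4-phosphate at endosomes. It held 76.84, 77.8, 70.35 and 73.89 CPM in siNTC5. It held 61.76, 65.21, 67.77 and 61.56 CPM in siHNRNPK. All knockdown libraries were below all controls, and the log2 change was −0.22 ± 0.05 (SE, adjusted p = 0.00123).

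**Figure D2:**
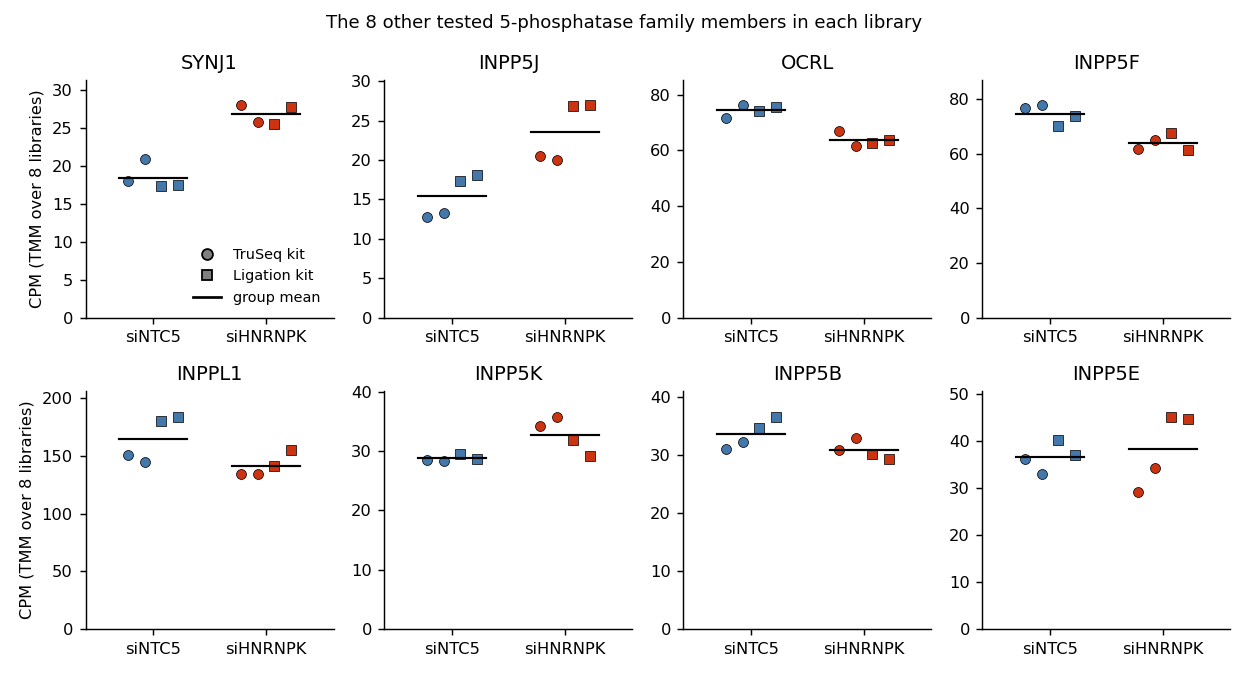
CPM of the 8 other tested members in each siNTC5 and siHNRNPK library; points are libraries, circles TruSeq and squares Ligation, lines are group means, and each panel has its own axis from 0. The groups do not overlap for SYNJ1, INPP5J, OCRL and INPP5F, and they overlap for INPPL1, INPP5K, INPP5B and INPP5E.

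**Figure D3:**
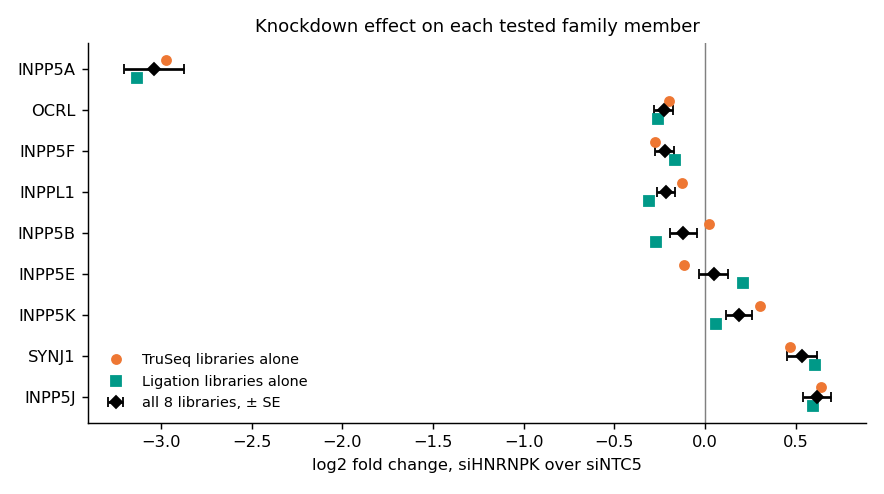
Log2 fold change of siHNRNPK over siNTC5 for the 9 tested members; diamonds with bars are the fit of all 8 libraries ± SE, circles TruSeq and squares Ligation libraries alone. INPP5A lies at −3.04, and the other 8 lie between −0.23 and 0.62.

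Compared with siNTC5, 3 of the other 9 members were called in Scramble, INPP5D among them, beside 68.6% of the 14263 genes tested there. INPP5B was higher by 0.31 ± 0.08 on the log2 scale (SE, adjusted p = 0.00317), at 40.1 and 40.67 CPM against 30.91 to 36.92. INPP5E was lower, with a log2 difference of −0.39 ± 0.09 (SE, adjusted p = 0.00156), at 25.75 and 28.47 CPM against 32.97 to 40.46. The third was INPP5D, which had 0 counts in siNTC5 and entered this test only through its Scramble counts. Its call is not read as a difference between the siRNAs, because table and siRNA set cannot be told apart. The other 6 did not pass, with adjusted p from 0.121 for INPP5J to 0.817 for INPP5F. Without a kit term INPP5B lost its call (0.22, adjusted p = 0.0553) and INPP5J gained one (−0.428, adjusted p = 0.0405), as INPP5J did with upper-quartile scaling (−0.283, adjusted p = 0.0362). These values share the siNTC5 libraries with the knockdown comparison. When the Scramble libraries were the controls, INPP5B and INPP5E passed in the knockdown comparison, at −0.334 and 0.227. INPP5K did not pass there, at 0.167. INPP5D was called there through its 0 counts in siHNRNPK, and that call is not read either. Purification and count table cannot be told apart from HNRNPK siRNA in that comparison, and its share of all genes called is not given.

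The genes that make, sense and recycle InsP3 and the phosphoinositides were taken as 7 lists with 78 genes, of which 65 were tested. After HNRNPK siRNA 22 of these rose and 28 fell, so 76.9% were called, near the 71.5% of all genes. Their median log2 change was −0.07. With a change of at least 1 on the log2 scale, 6 of the 65 were called lower and 1 higher, beside 8.28% lower and 7.47% higher among all tested genes.

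Of 10 tested phospholipases C, which release InsP3, 6 fell and 2 rose, beside 36.1% lower and 35.5% higher among all tested genes. The 8 called of 10 are near the 71.5% background, and the median log2 change of the list was −0.51. PLCB3, activated by G proteins, went from 184.6 ± 10.58 to 64.28 ± 6.254 CPM (SD, n = 4 each), or by −1.52 ± 0.06 on the log2 scale (SE, adjusted p = 1.28e-13). The calcium-sensitive PLCD1 and PLCD3 changed by −1.51 ± 0.12 (SE, adjusted p = 2.73e-09) and −1.09 ± 0.08 (SE, adjusted p = 7.68e-10).

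All 3 InsP3 receptors, the calcium channels that InsP3 opens, fell, with non-overlapping groups. Among all tested genes 36.1% were called lower, and 56.5% had groups that did not overlap. With 3 genes in the list, no share is read from it. ITPR3 went from 529.7 ± 14.49 to 277.5 ± 28.28 CPM and ITPR2 from 27.49 ± 3.517 to 8.186 ± 1.133 CPM (SD, n = 4 each). Their log2 changes were −0.93 ± 0.05 (SE, adjusted p = 1.51e-11) and −1.74 ± 0.09 (SE, adjusted p = 1.12e-11). ITPR1 went from 18.59 to 12.87 CPM, with a log2 change of −0.53 ± 0.09 (SE, adjusted p = 2.55e-05).

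The InsP3 3-kinases use the same substrate as INPP5A and phosphorylate it. ITPKA fell from 7.033 ± 3.2 to 3.012 ± 1.48 CPM (SD, n = 4 each; log2 change −1.22 ± 0.23 SE, adjusted p = 8.78e-05), although its groups overlapped. ITPKB fell by 0.30 on the log2 scale (adjusted p = 0.0353), and ITPKC was at −0.0034 ± 0.09 (SE, adjusted p = 0.973). Of the 9 tested inositol phosphate kinases 3 rose and 3 fell, so 66.7% were called, beside 71.5% of all tested genes. IPMK, a multikinase downstream of InsP3, was higher by 0.86 (adjusted p = 3.59e-08) and PPIP5K1, which makes pyrophosphates, by 0.31 on the log2 scale (adjusted p = 0.000809).

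Of the 9 tested genes that strip inositol phosphates further or, for ISYNA1, make them, 3 rose and 3 fell. The called share was 66.7%, beside 71.5% of all tested genes. IMPA2, an inositol monophosphatase, had a log2 change of −1.09 (adjusted p = 1.84e-07). IMPAD1, a Golgi phosphatase of the same superfamily, was at 0.52 (adjusted p = 3.11e-08). NUDT3, a diphosphoinositol phosphatase, was at 0.61 (adjusted p = 1.88e-09).

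Among the lipid kinases, 2 of 9 tested phosphoinositide 3-kinase genes rose and 4 fell, so 66.7% were called, beside 71.5% of all tested genes. The regulatory subunit gene PIK3R2 was lower, at a log2 change of −0.998 (adjusted p = 7e-12), as was PIK3C2B at −0.37 (adjusted p = 0.000184). PIK3R4, a partner of PIK3C3 in autophagy, was higher at 0.69 (adjusted p = 1.02e-09). Of 9 tested 4- and 5-kinases 5 rose and 3 fell, so 88.9% were called, beside the same 71.5%. PI4K2B and PIP5K1C, which make a precursor of PIP2 and PIP2 itself, were lower at −0.92 (adjusted p = 1e-09) and −0.70 (adjusted p = 1.64e-07). PIKFYVE, the endosomal 5-kinase, was higher at 0.71 (adjusted p = 1.07e-10).

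Other phosphoinositide phosphatases divided into 7 higher and 6 lower of 16 tested, so 81.2% were called, beside 71.5% of all tested genes. INPP4A, which removes the 4-phosphate after the 5-phosphatases, was lower, at a log2 change of −0.73 (adjusted p = 1.73e-08). FIG4, the partner of PIKFYVE, was lower at −0.65 (adjusted p = 7.27e-07), and the myotubularin MTM1 was higher at 0.68 (adjusted p = 1.35e-06). MTMR7, below the level required for naming and named after its value was seen, was the only one of the 7 large changes that was higher, at 1.15 (adjusted p = 1.21e-05). ITPK1 and PIP4K2B held 0 or 1 count in the 8 libraries and 2908 and 2629 (ITPK1) or 5364 and 4739 (PIP4K2B) in Scramble, as INPP5D did at lower level.

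**Figure D4:**
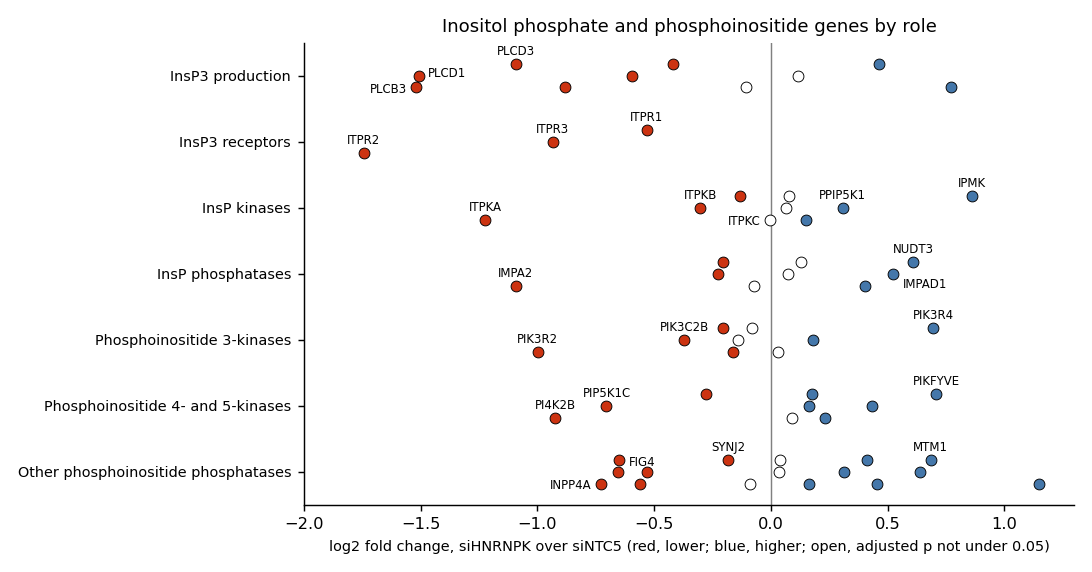
Log2 fold change of siHNRNPK over siNTC5 for the 65 tested pathway genes in 7 lists by role; the InsP phosphatase row includes ISYNA1, which makes inositol phosphate. The 3 receptor genes and 6 of the 10 phospholipase C genes lie to the left as red points, and the remaining lists hold points on either side. Among all tested genes 36.1% were called lower and 35.5% higher.

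As a description of which genes followed INPP5A, its log2 CPM was correlated with that of 9997 genes over the 8 siNTC5 and siHNRNPK libraries. The libraries fall into 2 treatment groups, so a high value mainly says that a gene differed between them. The nearest 5 were MPP2 (Pearson r 0.9974), CMTM4 (0.9963), TSPAN3 (0.9961), SAP30L (0.996) and CORO6 (0.996). All 5 were lower in siHNRNPK, with log2 changes from −1.51 (SAP30L) to −0.93 (MPP2). Over 10 libraries CORO6 had an r of 0.556 with INPP5A, and the other 4 kept an r of at least 0.9868. Within the family OCRL had the highest r with INPP5A, 0.958, followed by INPP5F at 0.87. SYNJ1 had the lowest, −0.918, and INPP5J was at −0.837.

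INPP5A lies on chromosome 10 at chr10:132537787-132783480 (GRCh38, RefSeq span), near the end of the long arm, and covers 245.7 kb. One end of NKX6-2, which lies mostly beyond INPP5A, overlaps the span; NKX6-2 held 0 or 1 count a library. Within 500 kb on either side the table has 21 genes, of which 10 were tested. Of these 5 were lower, 2 higher and 3 did not pass, a called share near the 71.5% of all tested genes (36.1% lower, 35.5% higher). The median log2 change was −0.30 against −0.00423 over all tested genes. DPYSL4, a collapsin response mediator, was the lowest at −1.79 ± 0.17 (SE, adjusted p = 3.56e-08). The kinase gene STK32C was at −0.67 ± 0.10 (SE, adjusted p = 6.63e-06), PWWP2B at −0.49 ± 0.20 (SE, adjusted p = 0.0382) and KNDC1 at −0.86 ± 0.24 (SE, adjusted p = 0.00387). TUBGCP2, of the gamma-tubulin complex, was at −0.41 ± 0.07 (SE, adjusted p = 4.43e-05).

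The metalloprotease gene ADAM8 was higher at 1.32 ± 0.15 (SE, adjusted p = 2.09e-07) and JAKMIP3 at 0.84 ± 0.34 (SE, adjusted p = 0.0355). JAKMIP3 counts were low, at 5 to 13 a library in siNTC5 and 9 to 14 in siHNRNPK. LRRC27, LINC02870 and CFAP46 were at −0.01, 0.12 and −0.19 (adjusted p = 0.958, 0.749 and 0.376). Within 1000 kb the tested genes were 19, with 10 lower and 5 higher, from −2.69 for PAOX to 2.56 for CYP2E1. The called share was again near that of all tested genes, of which 36.1% were lower and 35.5% higher. The median log2 change of the 19 was −0.30, against −0.00423 over all tested genes. Whether the region differs from other regions in direction was not tested.

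No base of INPP5A lay in any of the 7 domain lists. The nearest H3K27me3 domain, chr10:132790001-133185000 in siControl cells, began 6.521 kb beyond the gene and had a deposited score of 0.457. In siHNRNPK cells it ran from 132800001 to 133175000, 16.52 kb away, with a score of 0.418. The nearest lamin B1 domain was 697.8 kb away in siControl cells. A lamin B1 domain listed in siHNRNPK cells at chr10:132950001-133265000 was 166.5 kb away, with a score of 0.477, close to the lowest score of its list, 0.4769. H3K9me3 domains were 636.5 kb and 621.5 kb away in siControl and siHNRNPK cells, and the nearest H3K9me2 domain was 2958 kb away.

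**Figure D5:**
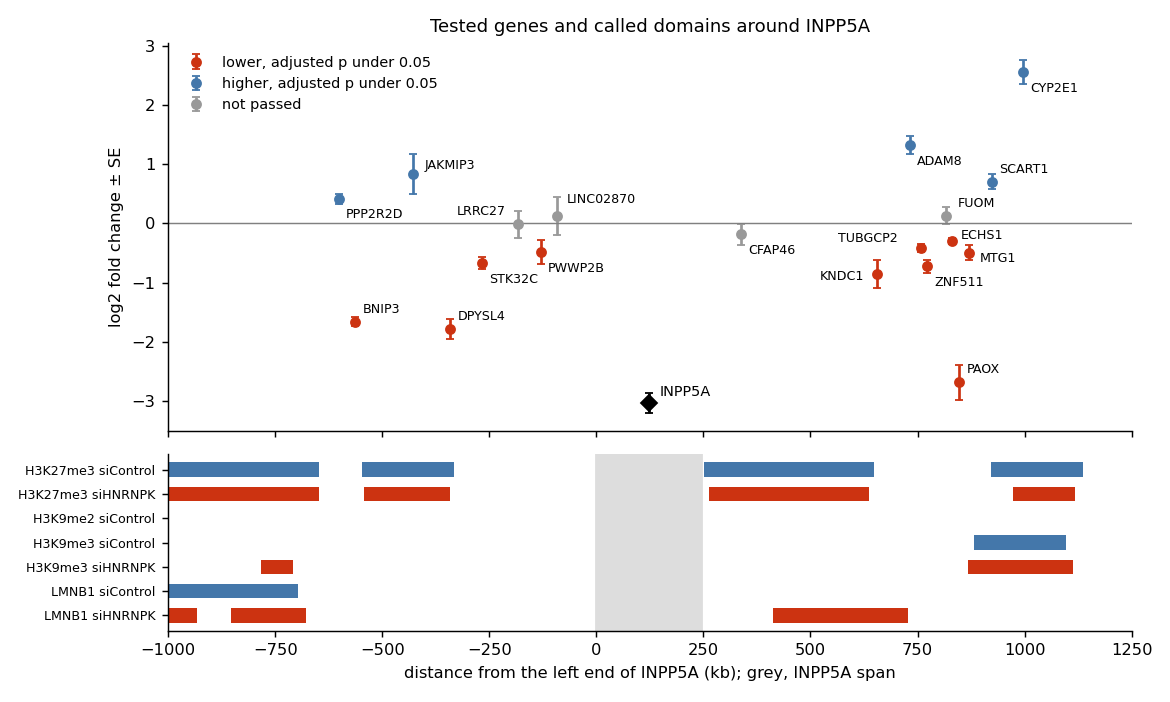
Upper panel: log2 change ± SE of tested genes within 1000 kb of INPP5A, placed at their midpoints by distance from the left end of INPP5A (kb); the black diamond is INPP5A at −3.04. Lower panel: domains of each list, blue in siControl and red in siHNRNPK cells; no domain touches the grey INPP5A span, and a lamin B1 domain to its right is listed in siHNRNPK cells only.

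Of the other 9 members 7 also had no base in any list, among them OCRL on chromosome X, SYNJ1 on chromosome 21 and INPP5F on chromosome 10. Across the 26987 genes with a position, between 9.071% (H3K9me2) and 22.7% (H3K27me3 in siControl cells) were covered over at least 50% of the body by a given list. The share of all genes with no base in any list is not given, so no trait of the family is read from the 7. The exceptions among the members were INPP5D and INPP5K, each covered whole in a single list. Their promoters, from 250 bases before to 50 bases after the start, are shown because they lie inside these domains. Sequences are from RefSeq on GRCh38.p14, written 5′ to 3′ on the strand of the gene, at chr2:233060092-233060391 (plus strand) for INPP5D and chr17:1516563-1516862 (minus strand) for INPP5K. Capitals mark runs of at least 4 C or 4 G, the form a CCCC run takes on either strand.
INPP5D: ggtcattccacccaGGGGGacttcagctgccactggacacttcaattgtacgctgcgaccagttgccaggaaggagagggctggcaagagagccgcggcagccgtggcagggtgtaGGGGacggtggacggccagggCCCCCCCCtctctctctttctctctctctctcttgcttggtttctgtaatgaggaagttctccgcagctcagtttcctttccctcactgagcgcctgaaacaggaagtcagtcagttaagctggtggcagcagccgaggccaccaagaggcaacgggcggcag
INPP5K: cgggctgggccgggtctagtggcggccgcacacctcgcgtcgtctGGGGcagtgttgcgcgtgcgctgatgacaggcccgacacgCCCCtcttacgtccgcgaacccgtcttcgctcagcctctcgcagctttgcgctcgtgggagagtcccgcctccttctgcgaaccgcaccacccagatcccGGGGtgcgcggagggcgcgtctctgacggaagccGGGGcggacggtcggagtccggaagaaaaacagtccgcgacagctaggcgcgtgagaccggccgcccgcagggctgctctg

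The INPP5D promoter holds 3 such runs and the INPP5K promoter 4, at 60.33% and 70.33% G and C. Of all 35116 promoters of this length in the table, 89.59% hold at least 1 run and the median is 4 runs, so both are near the usual count. RefSeq promoters were matched for 8 of the 10 members, not for INPP5A and INPP5J.

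INPP5D (chr2:233060342-233207903) lay whole in an H3K27me3 domain of siControl cells, chr2:233050001-233210000. That domain had a score of 0.263, at percentile 2.54 of the 1772 domains of its list (lowest 0.2409, median 0.884). In siHNRNPK cells no base of INPP5D was in an H3K27me3 domain, and the nearest was 367.1 kb away. Of 6126 genes with at least 50% of the body in an H3K27me3 domain of siControl cells, 468 (7.64%) likewise had no base in one of siHNRNPK cells. INPP5D RNA was listed at 0 in siNTC5 and siHNRNPK alike, so these libraries give no RNA value to set beside the domain.

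INPP5K (chr17:1494577-1516612) lay whole in a lamin B1 domain of siHNRNPK cells, chr17:1475001-1680000. Its score was 0.594, at percentile 31.92 of 730 domains (lowest 0.4769, median 0.7551). In siControl cells the nearest lamin B1 domain was 939.6 kb away. Of 2492 genes with at least 50% of the body in a lamin B1 domain of siHNRNPK cells, 407 (16.33%) had no base in one of siControl cells. INPP5K RNA had the log2 change of 0.19 given above. With domains limited to scores at or above the list median, neither gene was covered, so both memberships rest on domains in the lower part of their lists.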

How the data were processed

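Gene counts of 10 RNA libraries were deposited by the authors as raw counts per symbol, 1 table for 8 libraries and 2 Scramble tables. Per the submitters' processing notes, STAR 2.7.1a and featureCounts were used, with Subread 2.0.6 for the 8 libraries, and DESeq2 listed for Scramble. The notes list hg38 for the 8 libraries and the ChIP data, and both hg19 and hg38 for Scramble. The annotation and strand setting are not given in the sources used here. ChIP reads passed through fastp 0.23.2, Bowtie2 2.5.1 and deepTools 3.1.3, per the same notes. The score of each domain was deposited by the authors with no stated unit, caller or pooling, and is used only within its list.

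Counts were analysed in edgeR 4.0.16 (limma 3.58.1, R 4.3.3): filterByExpr, TMM normalisation and the quasi-likelihood test with kit and treatment as terms, Benjamini-Hochberg adjustment over all tested genes and a threshold of 0.05. Scripts were tested on simulated data. CPM values use TMM library sizes. The members and gene lists were chosen with earlier results of these data known. Genes named are the members, up to 3 largest called changes of each pathway list with an average log2 CPM of at least 2, genes sharing the members' substrates (SYNJ2, ITPR and ITPK genes; a further gene of this rule is not reported here), tested neighbours within 500 kb, the 5 genes most like INPP5A and HNRNPK. Nothing in the labels says that replicates came from separate cultures, so p-values measure the spread between these libraries, which may be technical. Replicate pairs differed beyond counting noise. The chi-square per degree of freedom was 2.244 to 8.401 for pairs of the same kit and 9.801 to 25.21 for pairs across kits. Same-numbered siNTC5 and siHNRNPK libraries deviated from their group means with positive r across genes (0.1004, 0.4246, 0.3365 and 0.2653 for replicates 1 to 4). The same number gave the highest r for replicates 1, 2 and 3 but not for replicate 4, and the numbers follow the kits. Alternatives were other normalisations, filters, terms, kits, controls and libraries left out, and DESeq2 1.42.0. Gene positions are RefSeq spans on GRCh38.p14, and domain edges lie on steps of 5 kb.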

Additional observations from a re-analysis of the deposited data

How the results depend on the processing

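The count of 6 called members other than INPP5A was 5 to 6 with each library left out. Over the other alternatives without a fold minimum it was 5 to 8. The 8 arose with Scramble as the controls and includes INPP5D, called lower through its 0 counts in siHNRNPK. That call is not read, because table and siRNA set cannot be told apart. With a minimum absolute log2 fold change of 1 the count was 0, and the 50 called pathway genes became 7. With a replicate block in place of kit the count of called members stayed 6, with 3 higher and 3 lower. Under that block the pathway count stayed 50, and INPP5F, INPP5J, INPP5K, INPPL1, OCRL and SYNJ1 changed no call. The 2 members covered by a domain became 0 with scores at or above the list median, and the 7 called neighbours became 15 in a window of 1000 kb, which holds more genes. INPP5A in the knockdown comparison ranged from −3.345 to −2.848 over 19 alternatives. INPP5F, INPP5J, OCRL and SYNJ1 kept direction and call under all 19, and INPPL1 under 18, all but TruSeq alone. INPP5B was at 0.022 and INPP5E at −0.117 in TruSeq libraries alone, and INPP5E ranged from −0.011 to 0.122 with each library left out. In Ligation libraries alone, with 2 per group, INPP5B and INPP5E passed, although neither passed the interaction of kit and knockdown. In the Scramble comparison, INPP5B lost its call without a kit term, INPP5J gained one there and with upper-quartile scaling, and small differences changed sign. INPP5A was 0.056 without a kit term and 0.008 without a filter, INPPL1 0.01 and OCRL 0.006 without a filter, and INPP5F −0.066 and SYNJ1 −0.037 with upper-quartile scaling. With each library left out, INPP5A ranged from −0.142 to 0.087, INPP5F from −0.02 to 0.065, INPPL1 from −0.055 to 0.01, OCRL from −0.065 to 0.017 and SYNJ1 from −0.043 to 0.17. The cause of these changes was not tested. Of the 5 genes most like INPP5A, 3 were shared over 10 libraries and 0 by Spearman correlation. Depth limits INPP5A in siHNRNPK, with 18 to 47 counts.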
